A study of Arabidopsis thaliana with 18 samples.

Results

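The enzyme families followed here across every group modify small molecules. They are the UDP-glycosyltransferases (UGT), cytochromes P450 (CYP) and tau-class glutathione transferases (GSTU). Their members were the probe sets annotated to 1 gene whose symbol starts with UGT, CYP or GSTU and a number, with 2 cyclophilins that carry a CYP symbol left out. This gave 82 genes on 82 probe sets, of 13513 probe sets with 1 gene and 22746 probe sets in all other than controls. There were 47 UGT, 24 CYP and 11 GSTU genes. RefSeq (TAIR10.1) holds 58, 237 and 27 genes with such symbols, so the CYP members are a small part of that family, and 19 of the 24 belong to 1 subfamily, CYP71B.

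Shoots and roots of Arabidopsis thaliana accession Ws-2 were profiled on the ATH1 GeneChip, a 1-colour oligonucleotide array, in 18 samples. The groups were caesium-treated, potassium-starved and control plants, each as shoots and as roots, with 3 arrays a group. All plants had reached growth stage 3.90 on 0.8% agar, with 1% sucrose in a diluted Murashige and Skoog medium, in 16 h days at 22 °C and 80% humidity. The sources used here give neither the caesium dose nor the length of a treatment. They do not say whether the 3 arrays of a group came from separate cultures, so the spread that p-values rest on may be technical.

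The families are best known as successive steps of detoxification. A P450, a membrane-bound haem enzyme, usually adds an oxygen and so a reactive group to its substrate. A UGT then joins a sugar from a UDP-sugar to it, and a glutathione transferase joins glutathione, after which the conjugate is moved to the vacuole or the cell wall. In plants the same families also act on hormones, salicylate, lignin precursors, flavonoids and glucosinolates, and many tau-class glutathione transferases respond to stress and to foreign compounds.

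Values are the authors' deposited MAS5 signals, linear and scaled per array to a common trimmed mean of 99.2 to 99.5, with medians of 33 to 45.4. Differences are log2 estimates ± standard error (SE) from limma, and a member was called at a Benjamini-Hochberg adjusted p under 0.05 over all probe sets tested. Signals of different probe sets are not on 1 scale, so levels are compared only within a probe set. Within groups, arrays correlated at r = 0.933 or more. The tissue labels were borne out by 6 shoot marker genes, whose summed signal was 156 to 473 on root arrays and 8089 to 14668 on shoot arrays, and by 3 root markers, at 2092 to 3630 on root and 78.7 to 1253 on shoot arrays. Among shoots the shoot-marker sum was 9807 to 12877 with caesium and 8089 to 10415 under potassium starvation, against 12778 to 14668 in controls, and 3 of the 6 markers fell under starvation. In whole organs, fewer cells of a type and less RNA per cell cannot be told apart.

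A member was tested in a tissue where at least 3 of its 9 arrays lay above the 40th percentile of their own array. In shoots 44 of 82 members passed (25 UGT, 12 CYP and 7 GSTU) and in roots 41 (23, 9 and 9). In the fit of both tissues 56 passed (31, 14 and 11). All 11 GSTU genes passed in at least 1 tissue. In neither tissue did 26 members pass, 16 UGT and 10 CYP, and 19 of these lay below the percentile on all 18 arrays. Among those 19 were 11 UGT genes, such as UGT84B1, which glucosylates auxin, and UGT84A1, which glucosylates sinapate, and 8 CYP genes, including CYP79A2 of the glucosinolate pathway. Their response cannot be read from these arrays. Passing was not independent of response for some genes in shoots: UGT73B5 passed only through its 3 caesium arrays and GSTU22 only through its 3 potassium-starved arrays. GSTU25 passed through 3 potassium-starved and 2 caesium arrays and no control array.

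Potassium starvation changed members of all 3 families in shoots. In potassium-starved against control shoots 7 members rose and 6 fell of 44 tested, that is 15.9% and 13.6%, beside 11.4% higher and 16.7% lower (28.1% in either direction) among all 14665 probe sets tested. The share of members called was therefore close to that of the whole array, and the description is of which members changed. By family, 4 UGT genes rose and 3 fell of 25, 1 CYP gene rose and 3 fell of 12, and 2 GSTU genes rose and none fell of 7. The median log2 difference was -0.42 for UGT, -0.36 for CYP and 0.32 for GSTU genes, beside -0.14 for all probe sets. At a common array median these were -0.26, -0.20, 0.47 and 0.01.

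The glycosyltransferases that rose were led by UGT76B1, whose enzyme glucosylates salicylate, N-hydroxypipecolate and isoleucate, compounds of the immune response. Its signal was 129, 97.5 and 86.2 in potassium-starved shoots, against 32, 18.2 and 4.18 in control shoots. The groups did not overlap, with a log2 difference of 2.93 ± 0.589 (adjusted p = 0.00581), and 1 control array was far below the other control arrays. Only 1 control signal lay above the 40th percentile, so the size of this rise is uncertain. UGT73B5, which takes part in the response to bacterial pathogens, had 21.1, 19.8 and 16.1 in potassium-starved shoots, against 7.93, 6.32 and 3.14 in control shoots. It rose by 1.80 ± 0.458 (adjusted p = 0.016), but all control and all starved signals lay below the 40th percentile, and adding 16 to each signal left a difference of 0.69.

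UGT87A2, a regulator of flowering time, had 990, 441 and 567 in potassium-starved shoots, against 449, 123 and 256 in control shoots. The groups overlapped, since the lowest starved array lay just under the highest control array, and the rise was 1.38 ± 0.42 (adjusted p = 0.0334). UGT72E2, which glucosylates the lignin precursors coniferyl and sinapyl alcohol, had 76.9, 55.4 and 65.4 in potassium-starved shoots, against 40.5, 44.6 and 32.5 in control shoots, a rise of 0.75 ± 0.219 (adjusted p = 0.0281). Both calls were lost without control shoot 3, without potassium-starved shoot 1 and without potassium-starved shoot 3. UGT87A2 also lost its call without control shoot 2, and UGT72E2 without control shoot 1. The adjusted p was then 0.0537 to 0.107 for UGT87A2 and 0.058 to 0.107 for UGT72E2. UGT87A2 was lost as well with quantile normalization (0.0575) and with only the 6 arrays compared (0.0583). UGT76B1, UGT73B5 and UGT87A2 were all 3 tested members of a list of 9 salicylate and pathogen-response glycosyltransferases. Of these 9, 6 were found on a probe set annotated to 1 gene. The list was drawn up with earlier results of these data known, so its count is no independent evidence of direction.

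The 3 glycosyltransferases that fell were UGT85A4, UGT88A1 and UGT76C1. UGT85A4 had 6.42, 21.6 and 23.4 in potassium-starved shoots, against 76.2, 65.2 and 36.8 in control shoots. It fell by 1.94 ± 0.487 on the log2 scale (adjusted p = 0.0154, and 0.0591 without control shoot 1). UGT88A1 had 239, 321 and 311 in potassium-starved shoots, against 522, 617 and 410 in control shoots, with no overlap and a log2 difference of -0.82 ± 0.212 (adjusted p = 0.0171). Its call was lost without control shoot 1, control shoot 2 or potassium-starved shoot 1 (adjusted p = 0.0522 to 0.0525), and also when arrays were set to a common median (-0.67, adjusted p = 0.0678).

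UGT76C1 and its chromosomal neighbour UGT76C2 encode cytokinin N-glucosyltransferases, which inactivate cytokinins. UGT76C1 had 40.9, 31.1 and 52.6 in potassium-starved shoots, against 60.9, 79.4 and 68.5 in control shoots, a log2 difference of -0.77 ± 0.219 (adjusted p = 0.0253). Without control shoot 2, control shoot 3, potassium-starved shoot 1 or potassium-starved shoot 2 the adjusted p was 0.0506 to 0.073, and with array weights or only the 6 arrays compared it was 0.0514 and 0.0578. UGT76C2 differed by a like amount, -0.78 ± 0.386, with overlapping groups (adjusted p = 0.151). Of 4 tested hormone glycosyltransferases, UGT76C1 alone was called. UGT74D1, which glucosylates auxins, differed by -0.74 ± 0.272 without overlap (adjusted p = 0.0636), and UGT71C5, which glucosylates abscisic acid, by -0.18 ± 0.209 (adjusted p = 0.542).

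CYP71B23 was the only P450 gene that rose, and its call held with every array left out in turn and in all other settings tried. Its signal was 213, 333 and 238 in potassium-starved shoots, against 111, 101 and 81.4 in control shoots. Every starved array lay well above every control array, with a log2 difference of 1.40 ± 0.221 (adjusted p = 0.00188). The P450 genes that fell were CYP71B34, CYP71B5 and CYP71B29. CYP71B34 had 30.2, 37.6 and 39.5 in potassium-starved shoots, against 125, 95.8 and 62.7 in control shoots, and fell by 1.35 ± 0.272 (adjusted p = 0.00579).

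CYP71B5 had 23.9, 26.3 and 49.7 in potassium-starved shoots, against 90.2, 72.2 and 62.3 in control shoots, and fell by 1.23 ± 0.299 (adjusted p = 0.0134). Its call was lost without control shoot 1 (0.0522), with array weights (-0.78, 0.06) and with all 18 arrays in the fit (0.249). CYP71B29 had 30.9, 14.7 and 25.6 in potassium-starved shoots, against 41.2, 57.1 and 46.1 in control shoots, and fell by 1.07 ± 0.29 (adjusted p = 0.0209). Its adjusted p was 0.0616 without control shoot 2 and 0.0574 without control shoot 3. In none of these 3 genes did a starved array reach a control array. CYP71B6, a gene of the indole defence pathway, differed by 0.45 ± 0.204 without overlap (adjusted p = 0.122). CYP84A4, an enzyme of arabidopyrone synthesis, differed by -0.71 ± 0.4 (adjusted p = 0.205).

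Both glutathione transferases that rose had low signals in control shoots. GSTU25, whose enzyme conjugates the explosive trinitrotoluene, had 49.7, 45.3 and 39.5 in potassium-starved shoots, against 12.1, 12.7 and 13.7 in control shoots. It rose by 1.80 ± 0.303 (adjusted p = 0.00256), the starved values lying far above tightly grouped control values. GSTU22 had 46.7, 25.4 and 31.3 in potassium-starved shoots, against 10.7, 13.4 and 11.6 in control shoots, and rose by 1.49 ± 0.373 (adjusted p = 0.0151). It entered the test only through the 3 starved arrays, where it was high, so its place in the count of GSTU genes that rose depended on that response. GSTU25 entered through starved and caesium arrays alone, so its place in that count depended on its response too. All control signals of both genes lay below the 40th percentile. With 16 added to each signal the differences were 1.07 and 0.83 and both stayed called.

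GSTU15 shows the limit of these data: it had 35.8, 43.1 and 51.1 in potassium-starved shoots and 47.3, 2.8 and 11.7 in control shoots, and its difference of 1.89 ± 0.801 did not pass (adjusted p = 0.101). GSTU18 had 223, 192 and 237 in potassium-starved shoots and 374, 260 and 280 in control shoots, a difference of -0.47 ± 0.206 without overlap (adjusted p = 0.109). GSTU20, whose protein interacts with the jasmonate-linked protein FIN219, had a difference of -0.02 ± 0.288, with a 95% interval of -0.65 to 0.62. GSTU27 and GSTU16 differed by 0.08 ± 0.391 and 0.32 ± 0.236 and did not pass.

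The replicate numbers paired the shoot arrays, since same-numbered arrays of different groups deviated together in all 9 pairs. Counts, SE and adjusted p for shoots, also with arrays left out, come from the fit without this pairing unless the block is named. With the number as a block, 8 members rose and 11 fell in potassium-starved against control shoots, beside 14.9% and 23.9% of all probe sets (38.8% in either direction). The block added UGT85A2 (adjusted p = 0.00584), UGT74D1 (0.00763), UGT80B1 (0.00894), UGT76C2 (0.0228) and GSTU18 (0.041) to those lower and GSTU15 (0.0427) to those higher. UGT80B1 encodes a sterol glucosyltransferase, and its difference was -0.62 ± 0.278.

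**Figure D1:**
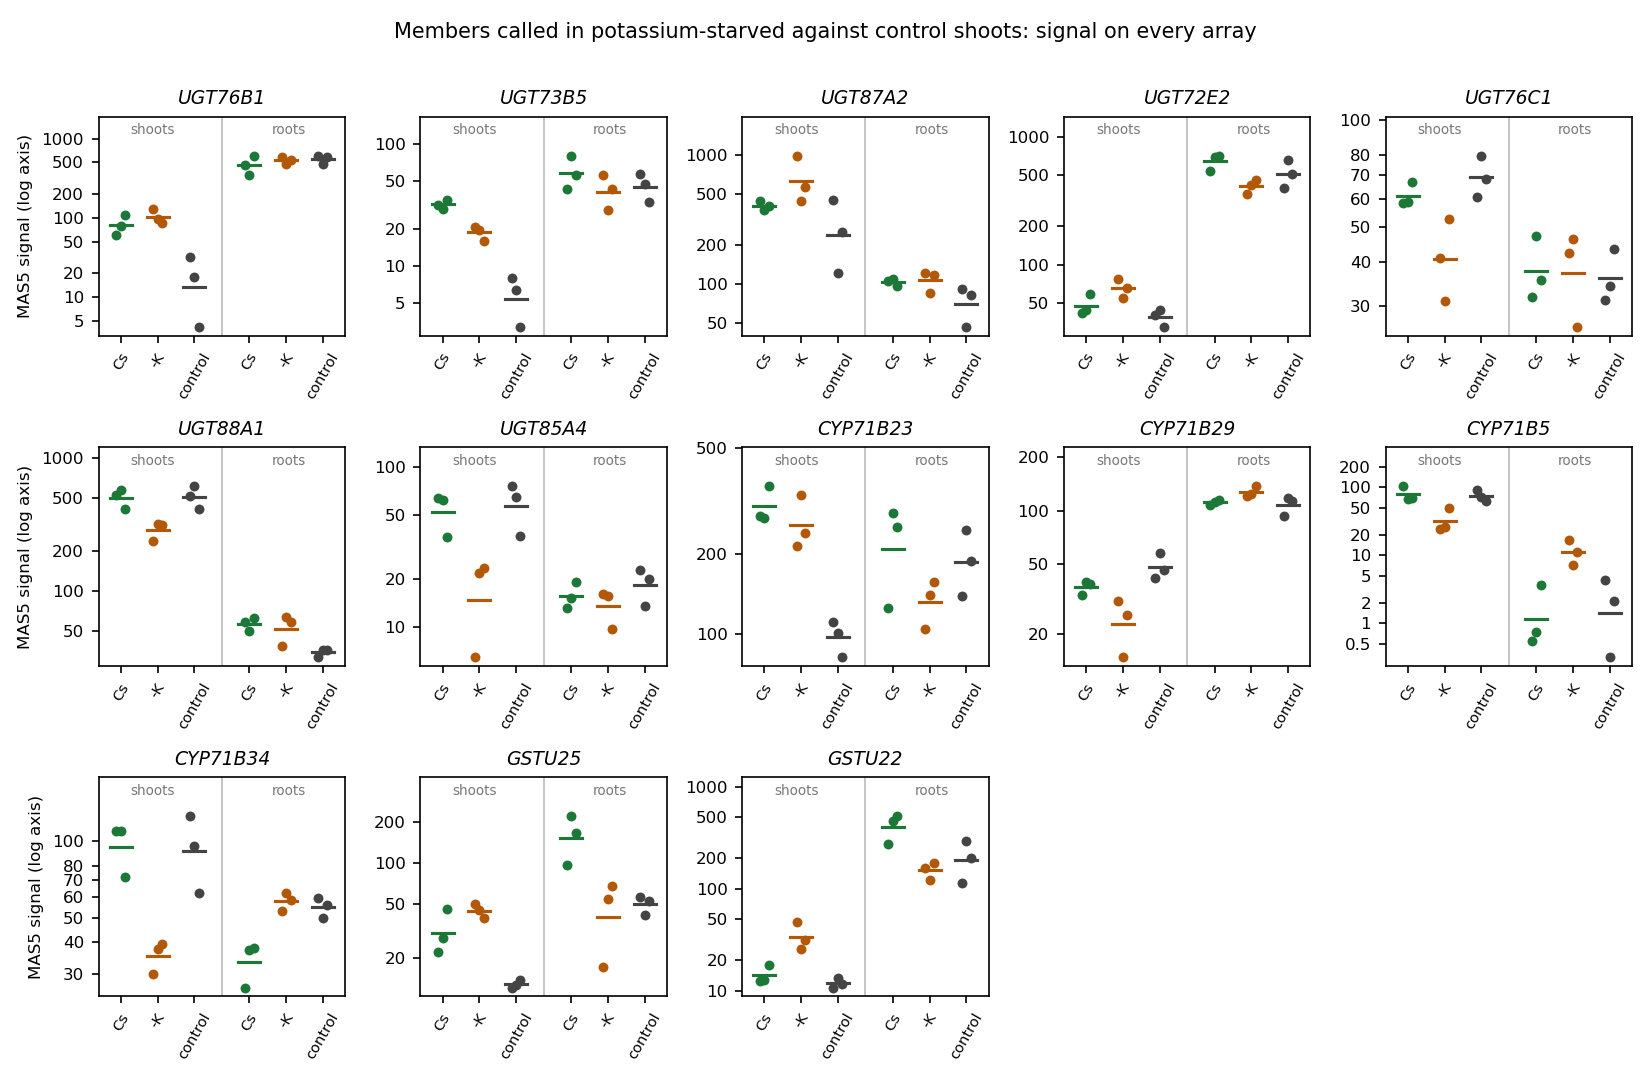
Signal on every array (points; log axis, MAS5 signal, a scale per panel) of the 13 members called in potassium-starved against control shoots, in caesium-treated (Cs), potassium-starved (-K) and control samples of shoots and roots; bars are geometric means of 3 arrays. CYP71B23 and UGT76B1 stand apart from control in both treated shoot groups, while GSTU22 and CYP71B34 stand apart from control shoots only under potassium starvation.

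Few members were called in shoots with caesium by the fit without the replicate block. In caesium-treated against control shoots 2 members rose and none fell of 44, beside 0.457% higher and 0.109% lower of all probe sets (0.566% in either direction). These were 1 of 25 UGT genes, 1 of 12 CYP genes and none of 7 GSTU genes. The comparison shares its control arrays with that of potassium starvation, so the values of both are set side by side without a test of their overlap.

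CYP71B23 had 277, 273 and 359 in caesium-treated shoots, against the control values of 111, 101 and 81.4. The groups lay far apart, with a log2 difference of 1.63 ± 0.221 (adjusted p = 0.0185), beside 1.40 under potassium starvation. UGT73B5 had 31.8, 29.7 and 35 in caesium-treated shoots, against 7.93, 6.32 and 3.14 in control shoots, a rise of 2.57 ± 0.458 (adjusted p = 0.0437), beside 1.80 under starvation. Its control signals were all below the 40th percentile and it entered the test through its caesium arrays alone. With 16 added to each signal its difference was 1.15 (adjusted p = 0.0147).

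Neither call was robust. Without caesium-treated shoot 1, 2 or 3 no member was called, and likewise without control shoot 3. CYP71B23 then had an adjusted p of 0.0523, 0.0934, 0.114 and 0.0625. UGT73B5 did not pass the filter without a caesium array, and had an adjusted p of 0.0921 without control shoot 3. It also missed the threshold without potassium-starved shoot 1 (0.0575) or potassium-starved shoot 3 (0.0617). At a common array median both were lost (0.0529 for CYP71B23 and 0.0591 for UGT73B5), and UGT73B5 with only the 6 arrays compared (0.0664). Of 8 settings other than leaving out arrays, CYP71B23 kept its call in 7 and UGT73B5 in 6, the replicate block among them. Arrays were left out in the fit without the block.

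UGT76B1 had 61.4, 78.3 and 108 in caesium-treated shoots, against 32, 18.2 and 4.18 in control shoots. Its difference of 2.58 ± 0.589 was close to the 2.93 of starvation but missed the threshold (adjusted p = 0.0749). With 16 added to each signal its difference was 1.59 (adjusted p = 0.0397). With the replicate block UGT76B1 (adjusted p = 0.0295), CYP71B6 (0.90 ± 0.204 in the unblocked fit, adjusted p = 0.0349 in the block) and GSTU25 (1.26 ± 0.303, adjusted p = 0.0437) were higher too. GSTU18 was lower in the block (-0.72 ± 0.206, adjusted p = 0.0365). That made 5 higher and 1 lower, beside 2.97% and 1.67% of all probe sets (4.64% in either direction).

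GSTU25 had 22.3, 28.2 and 45.8 in caesium-treated shoots, above all control values of 12.1, 12.7 and 13.7, with an unblocked adjusted p of 0.0863. CYP71B6 had 372, 493 and 448 in caesium-treated shoots, above 246, 276 and 186 in control shoots (unblocked adjusted p = 0.0745). GSTU18 had 204, 148 and 201 in caesium-treated shoots, below 374, 260 and 280 in control shoots (unblocked adjusted p = 0.131). GSTU22, in contrast to starvation, had 12.4, 12.8 and 17.9 in caesium-treated shoots and overlapped the controls, with a difference of 0.26 ± 0.373 and a 95% interval of -0.57 to 1.08.

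Set directly against potassium-starved shoots, caesium-treated shoots had 5 members higher and 1 lower of 44, beside 18% higher and 8.84% lower of all probe sets (26.8% in either direction). The genes that were higher were UGT85A4, UGT74D1, UGT88A1, CYP71B34 and CYP71B5, and the gene that was lower was GSTU22. Median differences were 0.51 for UGT, 0.63 for CYP and -0.25 for GSTU genes, beside 0.16 for all probe sets. At a common array median these were 0.24, 0.37, -0.51 and -0.11, and 4 members were higher and 2 lower, since UGT88A1 lost its call and UGT72E2 was called lower (adjusted p = 0.0272).

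UGT85A4 had 64.3, 62.5 and 36.3 in caesium-treated shoots, against 6.42, 21.6 and 23.4 in potassium-starved shoots (log2 difference 1.83 ± 0.487, adjusted p = 0.0214). CYP71B34 had 109, 109 and 72.1 in caesium-treated shoots, against 30.2, 37.6 and 39.5 in potassium-starved shoots (1.42 ± 0.272, adjusted p = 0.00623). CYP71B5 had 104, 67.7 and 68.1 in caesium-treated shoots, against 23.9, 26.3 and 49.7 in potassium-starved shoots (1.31 ± 0.299, adjusted p = 0.0119, and 0.222 with all 18 arrays in the fit). In all 3 genes no array of the caesium group reached down to the starved group.

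UGT74D1, the auxin glucosyltransferase gene, had 142, 83.3 and 139 in caesium-treated shoots, against 60.2, 46 and 51.1 in potassium-starved shoots (1.18 ± 0.272, adjusted p = 0.0125). UGT88A1 had 529, 577 and 413 in caesium-treated shoots, against 239, 321 and 311 in potassium-starved shoots (0.80 ± 0.212, adjusted p = 0.0211, and 0.125 at a common median). GSTU22 had 12.4, 12.8 and 17.9 in caesium-treated shoots, against 46.7, 25.4 and 31.3 in potassium-starved shoots (-1.24 ± 0.373, adjusted p = 0.0342), having entered the test through the starved arrays. Each of these groups stayed clear of the other.

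Only CYP71B34 kept its call in this comparison without caesium-treated shoot 1, where the other 4 higher genes had an adjusted p of 0.0508 to 0.0739 and GSTU22 had 0.097. Without caesium-treated shoot 2 UGT85A4 (0.0626, and 0.0514 with quantile normalization), UGT88A1 (0.0728) and GSTU22 (0.0854) lost theirs. GSTU22 also missed the threshold without caesium-treated shoot 3 (0.0534) and the signal filter without any 1 potassium-starved array, and UGT88A1 without potassium-starved shoot 1 (0.0573). With the replicate block 14 members were higher and 1 lower, beside 25% and 12.4% of all probe sets (37.4% in either direction).

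**Figure D2:**
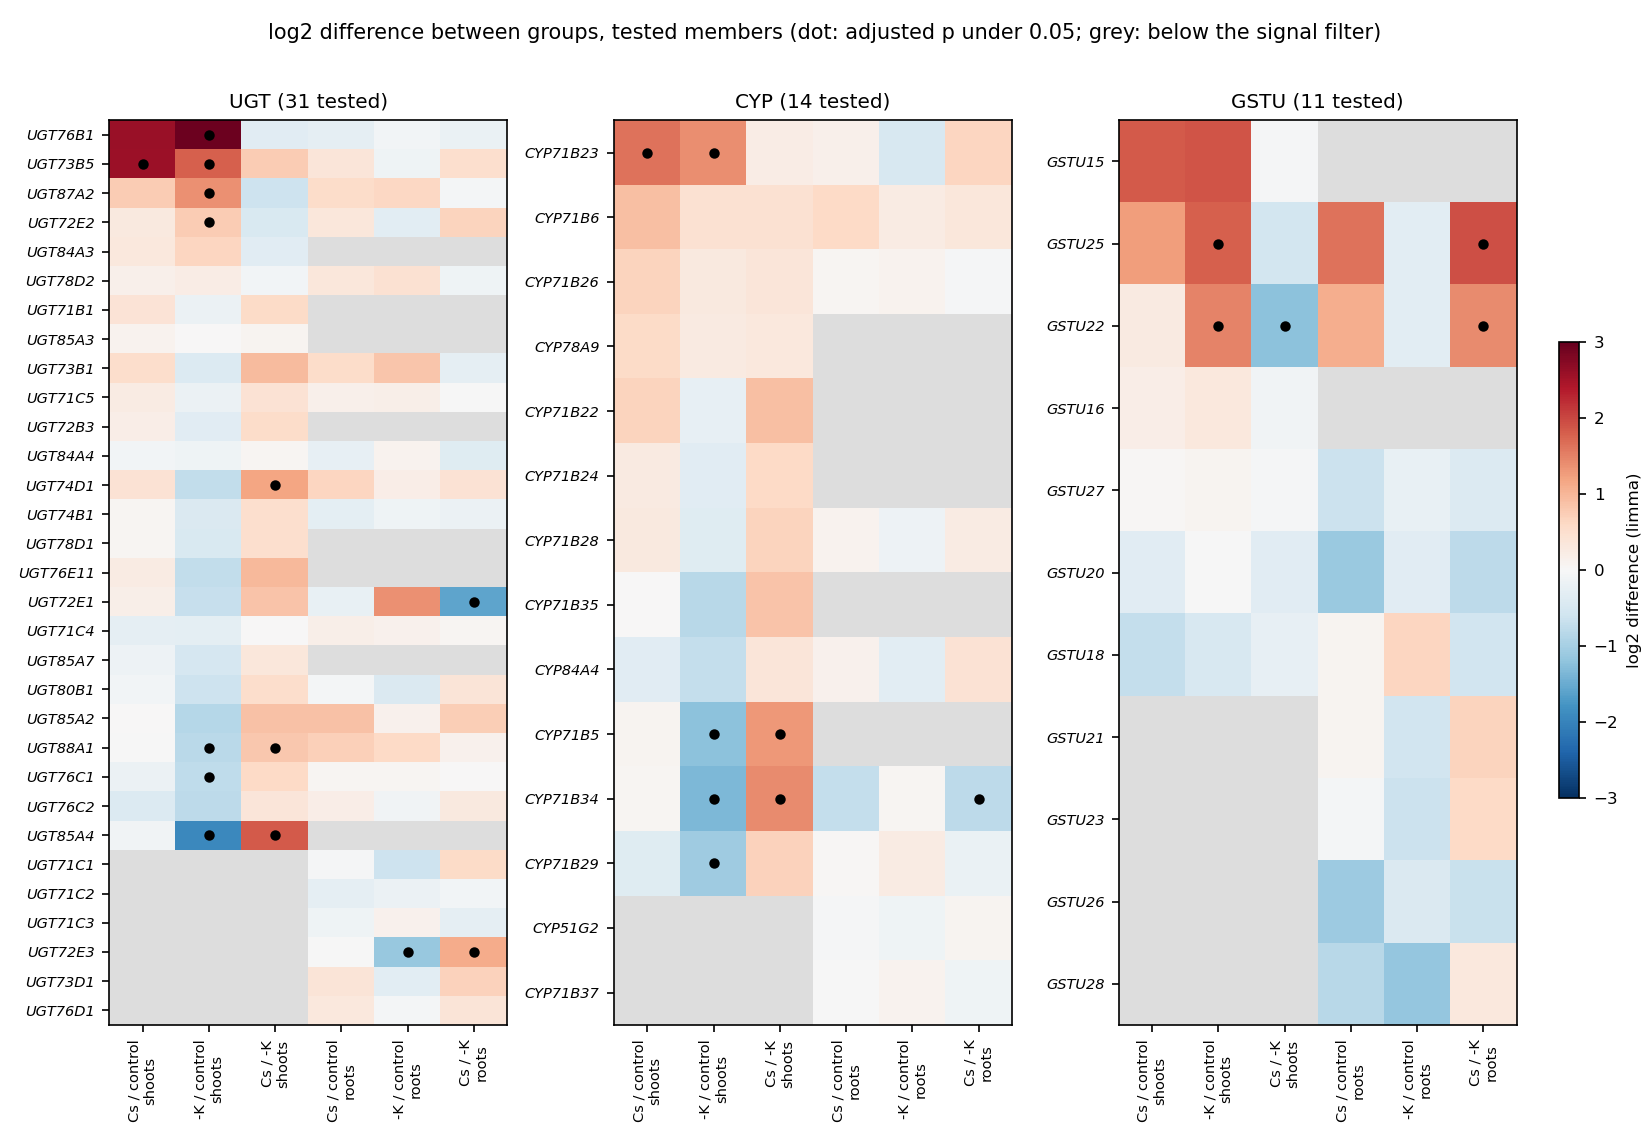
Colour gives the log2 difference from limma for each tested member (rows, by family) in 6 comparisons (columns) of caesium-treated (Cs), potassium-starved (-K) and control samples in shoots and roots; dots mark an adjusted p under 0.05 and grey a member below the signal filter in that tissue. The 13 dots of potassium-starved against control shoots stand beside 1 dot in the same comparison of roots.

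Fewer members were called in roots. In potassium-starved against control roots no member rose and 1 fell of 41, beside 0.714% higher and 0.381% lower (1.09% in either direction) of all 14432 probe sets tested there. The gene was UGT72E3, whose enzyme glucosylates sinapyl alcohol. It had 59.2, 51.1 and 44 in potassium-starved roots, against 104, 102 and 132 in control roots, with no overlap, and fell by 1.13 ± 0.211 (adjusted p = 0.0317). The call was lost without control root 1, 2 or 3, without potassium-starved root 2 or 3 and without caesium-treated root 2, where the adjusted p was 0.0572 to 0.146. It was also lost with no signal filter (0.0553) and with all 18 arrays in the fit (0.265).

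The other monolignol glycosyltransferase genes were not called. UGT72E1, whose enzyme acts on coniferyl and sinapyl aldehydes, had 794, 1067 and 935 in potassium-starved roots and 228, 423 and 476 in control roots. Every starved array lay above every control array, but the difference of 1.37 ± 0.312 missed the threshold (adjusted p = 0.0631). It passed with array weights (0.0198) and without caesium-treated root 1 (0.0386). UGT72E2 had 358, 419 and 455 in potassium-starved roots and 395, 657 and 510 in control roots, which overlapped (-0.32 ± 0.199, adjusted p = 0.427). Among glutathione transferases 8 of 9 tested had a negative difference and none passed. GSTU28 had 151, 140 and 78.2 in potassium-starved roots, below 399, 242 and 192 in control roots (-1.16 ± 0.3, adjusted p = 0.0912), and passed with array weights (0.0185). In the CYP family the smallest p belonged to CYP71B29 (0.24 ± 0.148, adjusted p = 0.413) and CYP71B23 (-0.49 ± 0.311, adjusted p = 0.43).

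In caesium-treated against control roots no member was called by limma, as no probe set was (0% in both directions), while 11 of 41 members and 1399 of 14432 probe sets had an unadjusted p under 0.05. Of the 11, 3 were UGT, 2 CYP and 6 GSTU genes, of 23, 9 and 9 tested. With array weights or the replicate block no member was called either. The summed signal of the 6 shoot markers was 329 to 473 in caesium-treated roots and 156 to 280 in control roots, without overlap. None of the 5 markers that passed the filter was called, and RCA (1.29 ± 0.41, adjusted p = 0.327) and LHCB4.1 (0.87 ± 0.236, adjusted p = 0.25) had the largest differences. The part of this shift in the members' values was not tested. The values are given without a call.

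GSTU25 had 96.1, 221 and 167 in caesium-treated roots and 56.3, 41.5 and 52.7 in control roots, a difference of 1.62 ± 0.455 (adjusted p = 0.268). Its chromosomal neighbour GSTU26 had 160, 192 and 193 in caesium-treated roots and 467, 243 and 519 in control roots, a difference of -1.10 ± 0.277 (adjusted p = 0.223). Neither gene's groups overlapped, and the differences had opposite signs. GSTU22 had 273, 459 and 515 in caesium-treated roots and 114, 295 and 202 in control roots (1.08 ± 0.335, adjusted p = 0.308). GSTU27 (-0.65 ± 0.157, adjusted p = 0.209) had the smallest p of the family, and GSTU20 differed by -1.12 ± 0.298 (adjusted p = 0.247). Among the other families UGT85A2 (0.89 ± 0.23, adjusted p = 0.231), UGT88A1 (0.72 ± 0.21, adjusted p = 0.288), CYP71B34 (-0.72 ± 0.187, adjusted p = 0.232) and CYP71B6 (0.59 ± 0.224, adjusted p = 0.417) had the smallest p. UGT73B5 and CYP71B23, higher in caesium-treated shoots, differed in roots by 0.37 ± 0.304 (adjusted p = 0.748) and 0.16 ± 0.311 (adjusted p = 0.909).

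Set directly against potassium-starved roots, caesium-treated roots had 3 members higher and 2 lower of 41, beside 2.27% higher and 2.27% lower of all probe sets (4.54% in either direction). GSTU25 had 96.1, 221 and 167 in caesium-treated roots, against 17.2, 54.6 and 67.7 in potassium-starved roots (1.94 ± 0.455, adjusted p = 0.0388). GSTU22 had 273, 459 and 515 in caesium-treated roots, against 159, 122 and 178 in potassium-starved roots (1.41 ± 0.335, adjusted p = 0.0407). Both were higher in roots with caesium than under starvation, the opposite of the sign in shoots, where GSTU22 was lower (-1.24) and GSTU25 did not pass (-0.54 ± 0.303, adjusted p = 0.208). That difference between organs was not tested.

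UGT72E3 had 145, 110 and 85.4 in caesium-treated roots, against 59.2, 51.1 and 44 in potassium-starved roots (1.12 ± 0.211, adjusted p = 0.0198). UGT72E1 had 199, 357 and 412 in caesium-treated roots, against 794, 1067 and 935 in potassium-starved roots (-1.59 ± 0.312, adjusted p = 0.0226). CYP71B34 had 26.6, 37.2 and 38.2 in caesium-treated roots, against 53.1, 62.4 and 58.6 in potassium-starved roots (-0.79 ± 0.187, adjusted p = 0.0406). None of these 5 genes had overlapping groups, and UGT72E1 and UGT72E3, of the same subfamily, were called in opposite directions.

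No call of this comparison held with every array left out. Without caesium-treated root 1 all 5 were lost (adjusted p = 0.0549 to 0.142), and so they were without potassium-starved root 2 (0.066 to 0.13). Without potassium-starved root 3 all but GSTU25 were lost (0.0769 to 0.12). GSTU22, GSTU25 and CYP71B34 were lost as well without caesium-treated root 2 (0.0546 to 0.0911), caesium-treated root 3 (0.0754 to 0.121) or control root 3 (0.051 to 0.0554). GSTU22 (0.0614) and CYP71B34 (0.0532) were lost without potassium-starved root 1. With no filter these 2 and GSTU25 missed the threshold (0.0625 to 0.0652), and with all 18 arrays CYP71B34 (0.0812) and UGT72E3 (0.17) did, as CYP71B34 did with 6 arrays (0.056).

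**Figure D3:**
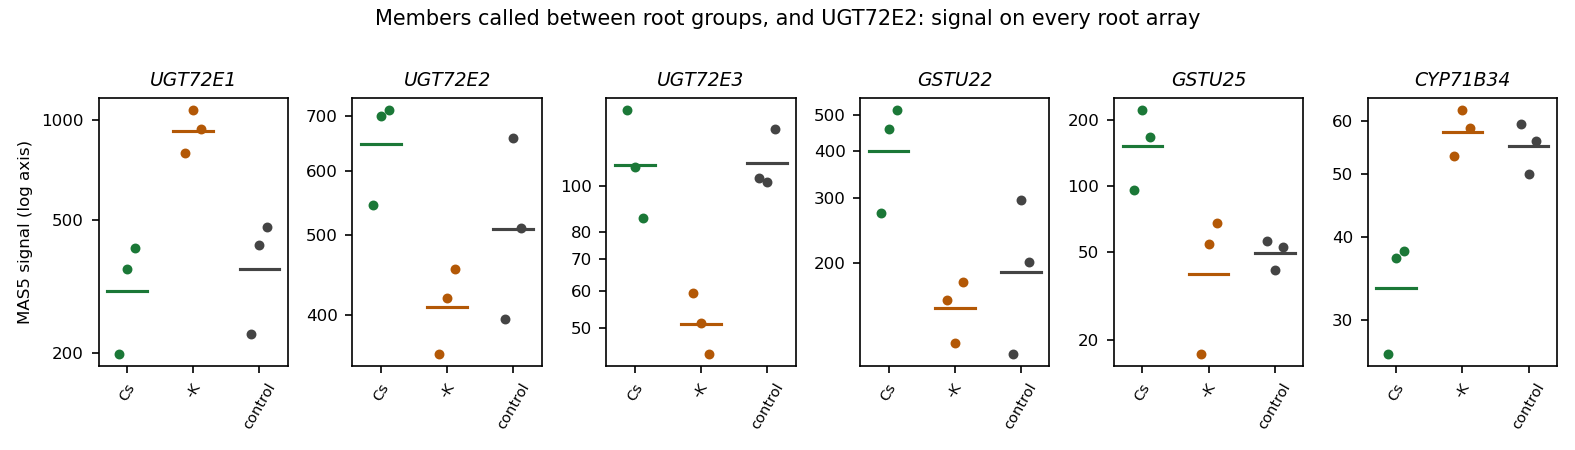
Signal on each root array (points; log axis, MAS5 signal, a scale per panel) of the 5 members called between root groups and of UGT72E2, in caesium-treated (Cs), potassium-starved (-K) and control roots; bars are geometric means of 3 arrays. UGT72E1 is highest and UGT72E3 lowest in potassium-starved roots, and GSTU22 and GSTU25 are highest in caesium-treated roots.

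More members differed between organs than between treatments. In control roots against control shoots 21 members were higher and 20 lower of 56, beside 30.6% higher and 22.5% lower (53.1% in either direction) of all 16397 probe sets tested. Of the 56, 15 passed the signal filter within shoots only and 12 within roots only. Their entry was thus not independent of the organ, and the counts depend in part on the filter, which was the same for all probe sets. By family, 11 UGT genes were higher and 11 lower of 31, 4 CYP genes were higher and 6 lower of 14, and 6 GSTU genes were higher and 3 lower of 11. All probe sets had a median difference of 0.17.

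Among the glycosyltransferases UGT72E3 had 104, 102 and 132 in control roots, against 1.93, 0.882 and 0.974 in control shoots (6.56 ± 0.437, adjusted p = 1.3e-09). UGT71C1 had 509, 367 and 256 in control roots, against 3.36, 9.25 and 3.39 in control shoots (6.26 ± 0.36, adjusted p = 1.9e-10). Shoot signals of both genes lay below the 40th percentile, so the size of these differences is uncertain. UGT76B1 had 608, 484 and 591 in control roots, against 32, 18.2 and 4.18 in control shoots (5.37 ± 0.483, adjusted p = 5.6e-08). Only 1 of these shoot signals lay above the 40th percentile, so this size is uncertain as well. UGT72E2 (3.71 ± 0.207) and UGT73B5 (3.06 ± 0.343) were higher in roots as well, as were UGT73D1 (3.95 ± 0.653), UGT71C3, a methyl salicylate glucosyltransferase gene (2.83 ± 0.323), and UGT71C2 (2.03 ± 0.312). All control shoot signals of UGT73B5, UGT73D1 and UGT71C3 lay below the 40th percentile too, so the size of their differences is uncertain.

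On the shoot side UGT78D1, the flavonol rhamnosyltransferase gene, had 0.72, 1.06 and 1.46 in control roots, against 46.7, 80.7 and 49.9 in control shoots (-5.79 ± 0.499, adjusted p = 3.3e-08). All its root signals lay below the 40th percentile, so the size of this difference is uncertain too. Its family member UGT78D2, a flavonoid glucosyltransferase gene, differed less (-1.35 ± 0.275, adjusted p = 0.0005). UGT88A1 had 31.6, 36.2 and 36 in control roots, against 522, 617 and 410 in control shoots (-3.88 ± 0.208, adjusted p = 7.9e-11). UGT76E11 (-3.50 ± 0.468), UGT84A3, a sinapate glucosyltransferase gene (-2.60 ± 0.372), UGT71B1 (-2.46 ± 0.285), UGT72B3 (-1.94 ± 0.484), UGT87A2 (-1.77 ± 0.375) and UGT85A4 (-1.64 ± 0.438) were also lower in roots. Of these, only UGT87A2 had control root signals above the 40th percentile, so the size of the other differences is uncertain.

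CYP71B5 had 4.34, 0.313 and 2.09 in control roots, against 90.2, 72.2 and 62.3 in control shoots (-5.71 ± 0.784, adjusted p = 9.1e-06), and all its root signals lay below the 40th percentile, so that the size is uncertain. CYP71B24 (-3.04 ± 0.467), CYP78A9, a gene of reproductive organ growth (-2.53 ± 0.493), CYP71B35 (-1.82 ± 0.534), CYP71B28 (-1.54 ± 0.3) and CYP71B34 (-0.72 ± 0.241) were lower in roots too. CYP71B37 (2.96 ± 0.449), CYP71B29 (1.18 ± 0.223), CYP71B23 (0.93 ± 0.286) and CYP71B6 (0.56 ± 0.217) were higher in roots. All root signals of CYP71B24, CYP78A9 and CYP71B35 and all shoot signals of CYP71B37 lay below the 40th percentile too, so these sizes are uncertain. The calls of CYP71B23 and CYP71B34 were lost without control root 2 (adjusted p = 0.062 and 0.0611). CYP71B34 also missed the threshold with array weights (0.0604) and without control shoot 1 (0.11) or 2 (0.0521), and CYP71B6 at a common median (0.0742) and without control root 2 (0.139) or 3 (0.087) or control shoot 1 (0.0585) or 3 (0.176).

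The glutathione transferases split by organ. GSTU26 had 467, 243 and 519 in control roots, against 8.15, 17 and 24.4 in control shoots (4.70 ± 0.45, adjusted p = 1.2e-07), and GSTU22 had 114, 295 and 202 in control roots, against 10.7, 13.4 and 11.6 in control shoots (4.00 ± 0.323, adjusted p = 1.5e-08). GSTU21 (3.92 ± 0.559), GSTU28 (3.79 ± 0.305), GSTU25 (1.96 ± 0.412) and GSTU23 (1.31 ± 0.411, adjusted p = 0.0129, and 0.0649 without control root 1) were higher in roots. In all 6 the control shoot signals lay below the 40th percentile, so the size of these differences is uncertain. GSTU18 had 25.6, 18.2 and 32.2 in control roots, against 374, 260 and 280 in control shoots (-3.61 ± 0.247, adjusted p = 1.8e-09), and GSTU16 (-3.02 ± 0.424) and GSTU20 (-2.55 ± 0.318) were lower in roots as well. All root signals of GSTU16 lay below the 40th percentile, and only 1 control root signal of GSTU18 lay above it, so the sizes of these differences are uncertain too. GSTU20 lies in a run of 4 neighbouring genes with GSTU21, GSTU22 and GSTU23, which were all higher in roots.

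**Figure D4:**
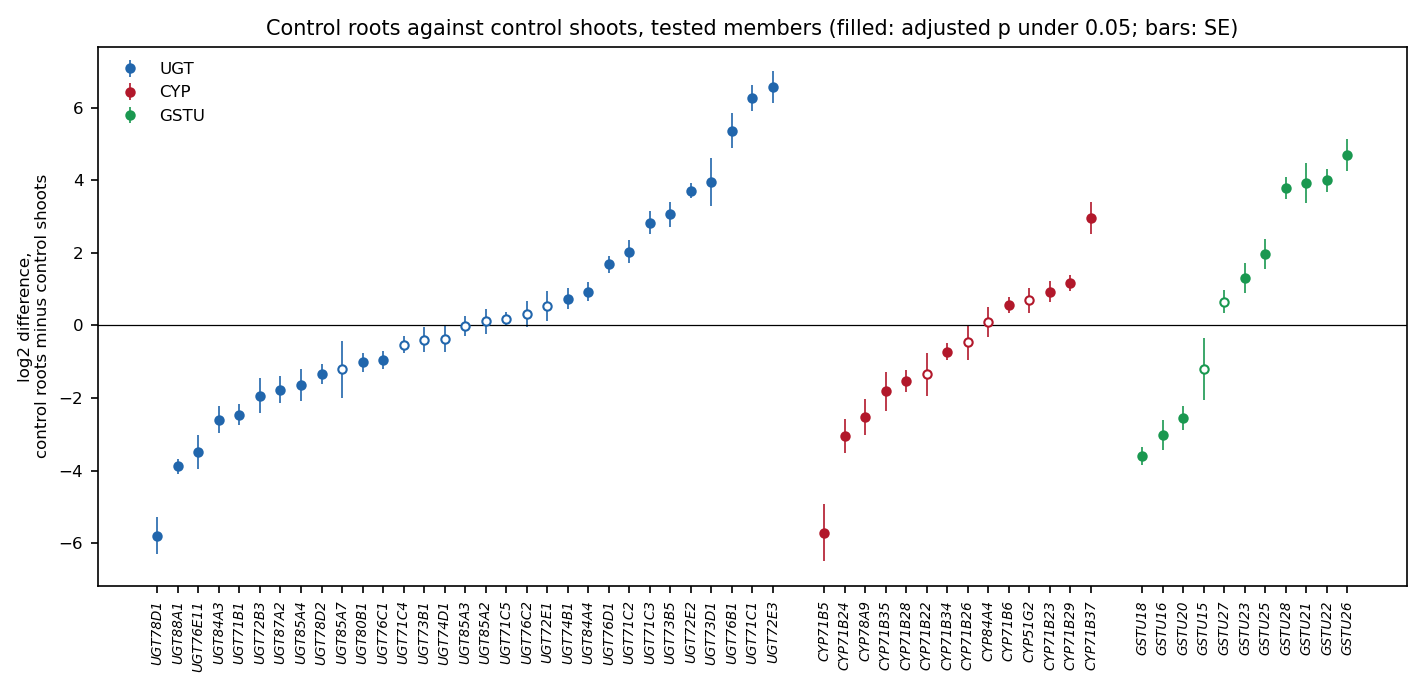
Log2 difference (y axis, control roots minus control shoots, bars SE from limma) of the 56 tested members, ordered within each family; filled points have an adjusted p under 0.05. Each family runs from strongly negative to strongly positive values, from -5.79 to 6.56 in UGT, from -5.71 to 2.96 in CYP and from -3.61 to 4.70 in GSTU genes. All these ends but 1 (-3.61, GSTU18) are set against signals that all lie below the 40th percentile, so their size is uncertain. For GSTU18 only 1 control root signal lies above it, so that size is uncertain too.

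The response to potassium starvation differed between organs for 13 of 56 members by the interaction term, taken as roots minus shoots. It was higher in 5 and lower in 8, beside 4.26% higher and 4.11% lower of all probe sets (8.37% in either direction). The 8 with a lower response in roots were UGT73D1, UGT76B1, UGT73B5, UGT72E2, CYP71B23, GSTU21, GSTU25 and GSTU22. The 5 with a higher response in roots were UGT88A1, UGT72E1, CYP71B5, CYP71B34 and CYP71B29.

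UGT76B1 in roots had 586, 473 and 534 under starvation and 608, 484 and 591 in controls, a difference of -0.08 ± 0.2, against the rise of 2.93 in shoots, and the interaction was -3.01 ± 0.684 (adjusted p = 0.0135). CYP71B23 had 104, 140 and 157 in potassium-starved roots and 139, 245 and 188 in control roots, so that its root difference was -0.49, against 1.40 in shoots (interaction -1.89 ± 0.405, adjusted p = 0.00984). UGT88A1 had 38.5, 63.2 and 58 in potassium-starved roots and 31.6, 36.2 and 36 in control roots, a root difference of 0.59, against -0.82 in shoots (interaction 1.41 ± 0.294, adjusted p = 0.00832).

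CYP71B34 (1.43 ± 0.341, adjusted p = 0.0174) and CYP71B29 (1.31 ± 0.316, adjusted p = 0.0179) fell in starved shoots and differed by 0.07 and 0.24 in roots. UGT73D1 had 44.6, 32.5 and 52.7 in potassium-starved roots and 56.7, 53.8 and 49 in control roots. In shoots, where it was too low to be tested within the organ, it had 56.3, 20.7 and 38.8 in potassium-starved and 1.01, 8.68 and 4.63 in control samples (interaction -3.70 ± 0.923, adjusted p = 0.0216). These 6 calls held with each of the 18 arrays left out and in the 6 other settings tried.

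UGT72E1 had a positive root difference of 1.37 and a shoot difference of -0.68 ± 0.434, and the interaction of 2.05 ± 0.586 (adjusted p = 0.0401) was lost without control root 1 or 2, control shoot 1 or 2, any potassium-starved root or potassium-starved shoot 1 (0.0518 to 0.0942). It was also lost with no filter (0.0526), at a common median (0.0719) and with array weights (0.0506). CYP71B5 (4.2 ± 1.11, adjusted p = 0.0279) rests on root signals of 16.9, 7.27 and 11.1 under starvation and 4.34, 0.313 and 2.09 in controls, all below the 40th percentile, and its call was lost without control shoot 1, potassium-starved root 1 or 3, or potassium-starved shoot 1 or 2 (0.0562 to 0.0672). GSTU22 (-1.82), GSTU25 (-2.12) and UGT73B5 (-1.94) missed the threshold with 16 added to each signal (adjusted p = 0.0618, 0.0588 and 0.0809). GSTU22 also missed it without control root 2 (0.0521) and UGT73B5 without control root 1 (0.0541). GSTU25 missed it with array weights (0.0876) and without control root 1 or 3, control shoot 1 or 3, potassium-starved root 1, or potassium-starved shoot 1 or 2 (0.0547 to 0.069).

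The response to caesium gave no such call: no member passed the interaction test, beside 0.0671% higher and 0.0732% lower of all probe sets (0.14% in either direction), and 7 members had an unadjusted p under 0.05. The 2 smallest p of each family were those of UGT73B5 (-2.20 ± 0.485, adjusted p = 0.0713), UGT76B1 (-2.85 ± 0.684, adjusted p = 0.11), CYP71B23 (-1.47 ± 0.405, adjusted p = 0.163), CYP71B34 (-0.78 ± 0.341, adjusted p = 0.482), GSTU18 (0.81 ± 0.35, adjusted p = 0.473) and GSTU22 (0.83 ± 0.456, adjusted p = 0.612). With array weights 2 were called, and 2 without control shoot 1.

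**Figure D5:**
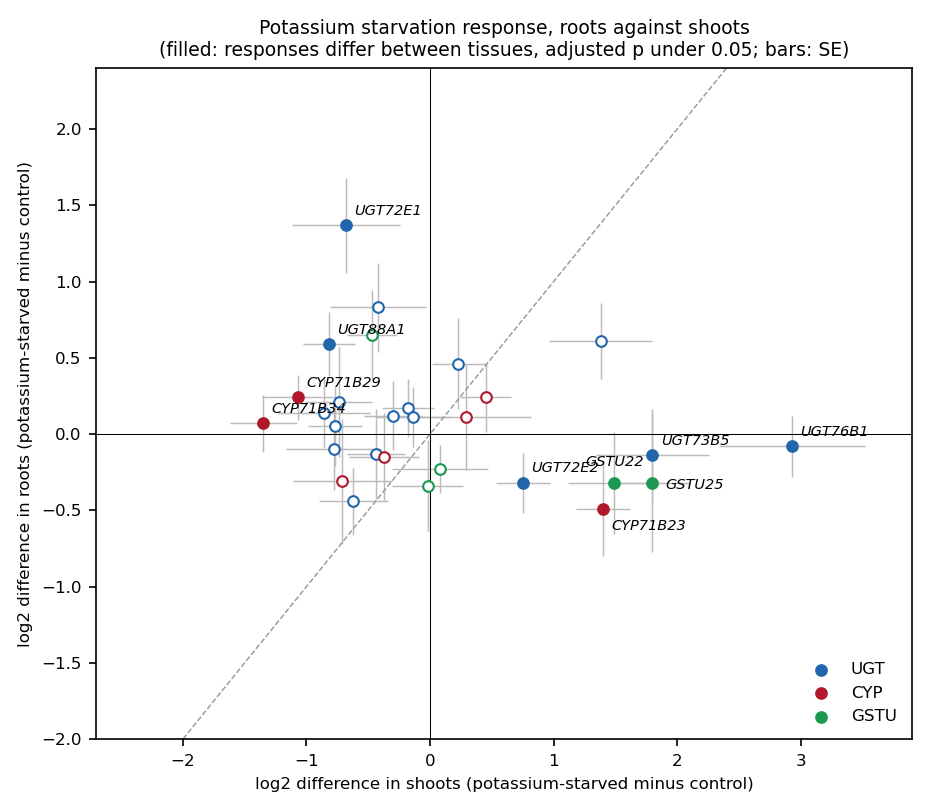
Log2 difference of potassium-starved against control samples in roots (y axis) and shoots (x axis) for the 29 members tested in both organs, with SE bars from limma; filled, named points differ between organs at an adjusted p under 0.05 and the dashed line marks equal responses. UGT76B1 lies at 2.93 in shoots and -0.08 in roots, and UGT73B5 at 1.80 in shoots and -0.14 in roots.

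Little of the surrounding pathway could be read, because few of its genes were found by symbol among probe sets annotated to 1 gene. The annotation used gave no gene for 8730 of 22746 probe sets and several for 503, so the array may hold more of them. No gene of a list of P450 electron donors was found in this way. Of 21 genes of glutathione synthesis and reduction 2 were tested, and both rose in potassium-starved shoots. They were GR1, a glutathione reductase gene (329 ± 80.6 in potassium-starved and 209 ± 8.02 in control shoots, SD, n = 3 each, log2 difference 0.63 ± 0.206, adjusted p = 0.043 by limma), and GRX480. GRX480 encodes a glutaredoxin that binds TGA factors, regulators of detoxification genes, and had 319 ± 67.6 in potassium-starved and 61.9 ± 28.1 in control shoots (2.43 ± 0.292, adjusted p = 0.000532). A MATE transporter gene, AT5G52050, rose by 1.93 ± 0.309 (adjusted p = 0.00206). The list of regulators held 24 names, in which NAC factors recur under an alternative name. Of these only WRKY6, a senescence and defence factor, was tested, with 104 ± 27.9 in potassium-starved and 23 ± 13.1 in control shoots (2.31 ± 0.384, adjusted p = 0.00241).

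In caesium-treated shoots WRKY6 rose too (2.21 ± 0.384, adjusted p = 0.0429), and GRX480 (1.48 ± 0.292, adjusted p = 0.0531) and GR1 (0.99 ± 0.206, adjusted p = 0.0605) missed the threshold. With the replicate block both were higher (adjusted p = 0.0156 for GRX480 and 0.0305 for GR1), as was AT5G52050 (0.98 ± 0.309, adjusted p = 0.168 without and 0.0456 with the block). In roots GR1, GRX480 and WRKY6 were not called under either treatment, and AT5G52050 was below the filter. Of 3 glutathione transferases of other classes, GSTL3, GSTF4 and GSTF13, none was called between treatments in either organ. These lists were drawn up with earlier results of these data known.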

How the data were processed

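The values were signal intensities per probe set of the ATH1 array, made by the authors with MAS5 per the submitters' processing notes and deposited on a linear scale in 1 table for all 18 samples. The sources used here give neither the version nor the settings of MAS5. Groups and replicate numbers came from the sample titles. Gene names came from the platform annotation, updated to RefSeq TAIR10.1, which held all 82 members, and 5 probe sets with several genes were left out. CYP718, a P450 without a subfamily letter, was included, and leaving it out changed no count. No genome build or sequence was used, so promoters and proteins were not analysed here, and runs of neighbouring genes (members at most 2 places apart) came from the order of protein-coding genes in RefSeq.

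The log2 of each signal was used, without a pseudocount or other normalization. R 4.3.3 and limma 3.58.1 (lmFit, eBayes with trend) were run on the 9 arrays of each tissue for comparisons within it, and on all 18 arrays for control roots against control shoots and for the interactions, over probe sets with at least 3 arrays above their own 40th percentile. Tests were two-sided and p-values adjusted by Benjamini-Hochberg over all probe sets of a comparison. The fit was tested on simulated shoots in which 200 of 14665 probe sets had a known change. It recovered 31% of changes of log2 1 and 93% of changes of log2 2, and called 4 unchanged probe sets. A member that was not called may therefore have changed, and recovery in the other comparisons was not tested. Simulated noise was independent between arrays, without the pairing of the shoot replicates. Far fewer probe sets changed in it than the 4116 called in potassium-starved against control shoots. Recovery in that real comparison may thus differ from these shares. The number of arrays, 3 a group, limits the precision.

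The members, the gene lists and the tests were chosen with earlier results of these data known. In each comparison and family up to 8 called members a direction were named, by size of difference, or where none was called the 2 with the smallest p. Up to 5 called members a direction, by p, were the rule for each interaction, and the other 3 lower ones are named because every member called there is given. Also named were CYP71B23, UGT73B5, GSTU25 and members of the role lists, and other members were named after their values were seen. The pairing was checked from deviations from group means: same-numbered shoot arrays correlated at 0.173 to 0.556 in all 9 pairs, and differently numbered ones at -0.419 to 0.0951. Root arrays of 1 number did so above 0.1 in 6 of 9 pairs and were not treated as paired. Alternatives were no filter, 16 added to the signal, a common median, quantile normalization, array weights, the replicate block, 6 or 18 arrays in the fit, platform symbols and each array left out.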

Additional observations from a re-analysis of the deposited data

Results flagged for a closer look

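The response to potassium starvation differed between organs, by the interaction term of the 18-array limma fit (roots minus shoots, log2), in 13 members. It was lower in roots for UGT73D1 (-3.70), UGT76B1 (-3.01), GSTU21 (-2.93), GSTU25 (-2.12), UGT73B5 (-1.94), CYP71B23 (-1.89), GSTU22 (-1.82) and UGT72E2 (-1.07). It was higher in roots for CYP71B5 (4.2), UGT72E1 (2.05), CYP71B34 (1.43), UGT88A1 (1.41) and CYP71B29 (1.31).

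GSTU21 had 27.1, 22.7 and 28.7 in potassium-starved roots and 45.2, 32.2 and 40.4 in control roots, a difference within roots of -0.58 ± 0.211 (adjusted p = 0.187). In shoots it had 11, 15.8 and 13 under starvation and 6.84, 1.64 and 1.5 in controls, too low to be tested there, and its interaction (adjusted p = 0.031) was lost without control root 1 or 3, control shoot 2 or 3, any potassium-starved root or potassium-starved shoot 2 (0.0548 to 0.0756). UGT72E2 rose in starved shoots (0.75) and differed by -0.32 in roots, and its interaction (adjusted p = 0.0338) was lost without control root 2 or 3, control shoot 1 or 3, potassium-starved root 1 or potassium-starved shoot 1 (0.0556 to 0.0851).

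Without potassium-starved root 1, 8 of the 13 were called. No explanation of these differences was tested.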

How the results depend on the processing

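Of 174 differences named for members, tested under 3462 alternatives, no called value changed sign, 142 alternatives lost a call and 36 gained one. Of 76 called values, 45 kept their call under every alternative run. Of the 76, 36 belonged to control roots against control shoots, and 32 of those kept theirs. The treatment and interaction calls were thus less stable than the pooled count. An alternative in which a member failed the signal filter was not counted for that member. The cause of the changes in the counts of members called was not tested. In caesium-treated against control shoots 2 members were called, with 0 at a common median, 6 with array weights, 6 with the replicate block, 1 with 6 arrays and 4 with 18 arrays in the fit. In caesium-treated against potassium-starved shoots the 6 became 15 with the block. In potassium-starved against control shoots the 13 became 19 with the block and 17 with no filter. In potassium-starved against control roots the 1 became 0 with no filter, 4 with array weights, 3 with the block and 0 with 18 arrays. In caesium-treated against potassium-starved roots the 5 became 2 with no filter, 11 with array weights and 8 with the block. In the caesium response of roots against shoots the 0 became 2 with array weights. In roots the replicate numbers were not taken as pairs (same-numbered arrays correlated at -0.053 to 0.415); with the block UGT72E1 (adjusted p = 0.00661) and GSTU28 (0.0189) were called in potassium-starved against control roots.

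With each array left out in turn, the count ranged from 8 to 13 in potassium-starved against control shoots, lowest without potassium-starved shoot 1. It ranged from 0 to 3 in caesium-treated against control shoots, and from 1 (without caesium-treated shoot 1) to 7 in caesium-treated against potassium-starved shoots. In roots it ranged from 0 to 2 for potassium-starved against control, was 0 for caesium-treated against control, and ranged from 0 to 5 for caesium-treated against potassium-starved samples. Control roots against control shoots gave 38 to 43, the potassium interaction 8 (without potassium-starved root 1) to 15 and the caesium interaction 0 to 2. The low signal of many members, with 19 below the 40th percentile on every array, limits what could be seen.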

Other observations

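In a few members the shoot arrays of replicate 2 stood highest whatever the treatment, a pattern noticed after the values were seen and not tested. CYP71B22 had 45.4, 141 and 67.9 in caesium-treated, 18.8, 80.9 and 42.8 in potassium-starved and 29.5, 132 and 28.2 in control shoots, replicates 1 to 3. CYP71B26 had 47, 86.1 and 39.6 in caesium-treated, 36.2, 73.5 and 28 in potassium-starved and 31.2, 74.2 and 17.5 in control shoots. In both genes replicate 2 was the highest of its group in all 3 groups. UGT85A2 was highest in replicate 2 of each shoot group as well, with 153 with caesium, 68.5 under starvation and 129 in controls.

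Neighbouring genes of a family were not always called together, and no difference between neighbours was tested. The runs given are examples, and the neighbours UGT76C1 and UGT76C2 differed by a like amount in potassium-starved against control shoots. The members form 19 runs of genes at most 2 places apart, which hold 52 of the 82. CYP71B23 lies in a run with CYP71B21, CYP71B22 and CYP71B24: it rose in potassium-starved shoots, while CYP71B22 (-0.25 ± 0.673) and CYP71B24 (-0.34 ± 0.401) did not pass and CYP71B21 was below the filter. CYP71B34 (-1.35 ± 0.272) fell in starved shoots, its neighbour CYP71B35 (-0.83 ± 0.362, adjusted p = 0.108 by limma) did not pass, and CYP71B26 in the same run differed by 0.29 ± 0.525. In the run of CYP71B27, CYP71B28 and CYP71B29, CYP71B29 fell and CYP71B28 differed by -0.37 ± 0.283.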
